A study of Homo sapiens with 6 samples.

Results

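The chaperone and proteasome genes were studied here as the AGO2-bound RNA regions (peaks) whose gene name begins with HSPA, HSPB, HSPD, HSPE, HSPH, HSP90 or DNAJ, with CCT and a digit, or with PSMA to PSME. This rule on names alone found 74 of the 7772 peaks of the list, in 43 of its 3659 genes. Chaperone names accounted for 47 peaks in 26 genes and proteasome names for 27 peaks in 17 genes. HSPA8, HSPD1, HSPA5 and PSMB6 were taken to mark this group. They were chosen with earlier results of these data known, so their having peaks is not a finding. A pair of members share only the letters of a prefix: HSPBP1 is a cofactor that binds HSP70, and PSMC3IP is a meiotic recombination protein.

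The cells were 22RV1, an established human prostate cancer line, and all of them were transfected in suspension at 20 nM, either with a mimic of the microRNA miR-194 (3 libraries) or with a negative control (3 libraries). After 24 h the living cells received 600 mJ/cm2 of ultraviolet light at 254 nm, which joins protein to RNA, and AGO2 was pulled down with antibody 4F9 and the attached RNA sequenced (HITS-CLIP). One cell pellet was used for each pull-down, and separate cultures behind the libraries of a group are not stated. The deposited peak list is one merged table for the series, with 1 score per peak and no value per library. Nothing in it separates mimic from control cells, so no difference between the 2 groups is given. The values below belong to this list alone: they have no replicate spread, and the read depth under a peak cannot be stated.

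Chaperones bind unfolded or newly made proteins and help them fold. HSP70 proteins do so in cycles driven by ATP, J-domain (DNAJ) proteins hand them clients, and HSP110 proteins release their nucleotide, while the chaperonins HSPD1 (mitochondria) and TRiC, built from CCT subunits (cytosol), enclose a client in a barrel. The proteasome degrades proteins tagged with ubiquitin. Its 20S core has outer rings of PSMA and inner, catalytic rings of PSMB subunits, its 19S cap joins PSMC ATPases with PSMD subunits, and PSME proteins are other activators. AGO2 holds a microRNA and pairs its seed, the bases near its 5′ end, with a complementary stretch of a transcript.

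The bases behind the listed sites are printed first because the comparison of the families rests on them. The mature miR-194-5p has its seed, bases 2 to 8, in capitals (RefSeq, GRCh38.p14, the same for MIR194-1 on chromosome 1 and MIR194-2 on chromosome 11).
miR-194-5p: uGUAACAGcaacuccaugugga

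A full match to this seed followed by A (8mer) reads CTGTTACA, a 7mer-m8 reads CTGTTAC, a 7mer-A1 reads TGTTACA and a 6mer reads TGTTAC. The first 3 classes are called 7mer matches below, and a listed site without the 6mer is called a variant. The next 9 stretches of 30 bases come from coding sequence under member peaks, read 5′ to 3′ in GENCODE 29 transcripts. Capitals mark the match, or, in a variant, the 8 bases in the place of CTGTTACA.
HSPA5, exon 7, 8mer, peak score 303: taatcaaccaaCTGTTACAatcaaggtcta
PSME4, exon 25, 7mer-A1, peak score 65: ttgatagagtaaTGTTACAgcatgagctac
PSMD2, exon 19, 7mer-m8, peak score 27: aggagtttcttcCTGTTACccccattctgg
PSMB6, exon 4, 6mer, peak score 212: tttaaggagatgTGTTACcgataccgggaa
PSMB7, exon 5, 6mer, peak score 54: agggggagtagaTGTTACtggacctcacct
PSMD3, exon 4, 6mer, peak score 27: gtagccgcaaagTGTTACtattatcacgcc
HSPD1, exon 3, variant, peak score 348: agatggtgtgaCTGTTGCAaagtcaattga
PSMA4, exon 5, variant, peak score 143: ttgtgagcagtTGGTTACAgcgctgtgtga
CCT4, exon 10, variant, peak score 105: ccctggaaaaaCAGTTACAattgttgttcg

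Counted from 1 at the 5′ end of CTGTTACA, the variants differ from the 8mer by A6G in HSPD1, by T2A in CCT4, and by C1T and T2G in PSMA4. The 3′ UTR matches of the chaperone genes are shown next, for comparison of their flanks.
CCT5, 7mer-A1, peak score 101: acagttatttatTGTTACAtccttttccag
DNAJC10, 7mer-A1, peak score 31: acctatttagaaTGTTACAtttatgatggg
HSPA4, 8mer, peak score 21: gctttaagaaaCTGTTACAgggcttgttgg
HSPA4, 7mer-m8, peak score 5: cagagtgcctctCTGTTACttttggcctat
HSPA4L, 7mer-A1, peak score 17: taaacttaactaTGTTACAtatcaacaggc
HSPA4L, 7mer-A1, peak score 17: aaaaatatagaaTGTTACAtagtgttgtgt

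Across the 21 sites listed on the strand of a member peak, in 15 genes, 19 were found at a single place of the matched transcript. For 14 of them the table names an exon, and all 14 lay in that exon. The remaining 2 are in an intron of HSPH1 and were not sought there. In the transcripts, 12 sites (11 peaks) fell in coding sequence and 7 sites (6 peaks) in a 3′ UTR. The deposited annotation calls 5 of those 6 peaks something else: both HSPA4 peaks, the HSPA4L peak and the 109-scoring PSMD2 peak are given as transcript ends, and the DNAJC10 peak as a non-coding transcript.

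The HSP70 and HSP110 genes held the highest score of the group and 5 of its 10 peaks with a 7mer match. HSPA8, the constitutive HSP70 of the cytosol, had a peak scoring 548, rank 15 of the 7772 peaks, in exon 3 of 9 (hg19, chr11:122931278-122931450, minus strand, 173 nt). Another HSPA8 peak in the same exon scored 39, and one in the following intron scored 5. These 3 peaks lie within 10 nt of each other, so they form a single run along the transcript. None of them has a listed site of any class.

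HSPA5, the HSP70 of the endoplasmic reticulum (BiP), had 5 peaks, more than any other member, all in coding exons. Their scores were 303 in exon 7 of 8 (chr9:128000421-128000552, minus strand), 115 in exon 6, and 48, 19 and 11 in exon 3. The 303-scoring peak, rank 55, carries the 8mer printed above, with the site's centre 47 nt downstream of the peak's centre. The other 4 HSPA5 peaks have no listed site, and the 3 in exon 3 are neighbours in a single run.

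The HSP110 proteins act as nucleotide exchange factors of HSP70, and their matches sat outside coding exons. HSPA4 had peaks scoring 21 (8mer) and 5 (7mer-m8) beside each other, labelled as transcript ends. Their listed sites start at nt 1424 and 1495 of exon 19, which is 2217 nt long, in the 3′ UTR. The lower-scoring peak also has a listed site on the opposite strand. HSPA4L had peaks scoring 17, with a pair of 7mer-A1 sites 30 nt apart, and 13, with none. HSPH1 had 1 peak scoring 24 in an intron, with a pair of 7mer-m8 sites. The 4 HSPA or HSPH genes with a 7mer match were thus HSPA5 and these 3 HSP110 genes, and the HSP110 peaks scored 24 at most. The mitochondrial HSP70, HSPA9, had 1 coding peak scoring 20 and no site. HSPA1B, a stress-induced HSP70, had peaks scoring 18 and 10 at its start and in its 5′ UTR, without a site, and its near-identical neighbour HSPA1A has no listed peak, so reads of the pair cannot be told apart here.

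The same place was compared between the HSP70 coding sequences. HSPA8 and HSPA5 are identical at 67.9% of aligned coding bases, HSPA8 and HSPA1B at 74.1%, and HSPA5 and HSPA1B at 64.8%. Where HSPA5 reads ctgttaca, HSPA8 reads gtgtgctt, with 5 bases different, and HSPA1B reads gggtgctg, with 6 different. The match of HSPA5 is thus not carried by HSPA8 or HSPA1B at the aligned place.

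The HSP90 genes with a peak had 1 each, in a coding exon. HSP90AA1 scored 28 and HSP90AB1 27, both above the list's median of 15, and neither has a listed site. HSP90B1, the form in the endoplasmic reticulum, has no listed peak. HSPBP1, which only shares the prefix, had 1 coding peak scoring 15 without a site. No small heat shock protein gene has a peak, out of 8 in the family list.

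Of the 4 HSPD1 and 12 CCT peaks, 3 have a listed site: a variant in HSPD1 and in CCT4, and a 7mer-A1 in CCT5. HSPD1 (HSP60), which forms the folding chamber of mitochondria, had a peak scoring 348, rank 40, in exon 3 of 12 (chr2:198362022-198362119, minus strand). It carries only the variant CTGTTGCA, 18.5 nt downstream of the peak's centre, and 1 more listed site on the opposite strand. Its other peaks scored 52 in the same exon, 16 in exon 4 and 5 in an intron, all without a site. Of the TRiC genes, 6 of 8 had a peak. CCT4 had peaks scoring 105 (exon 10 of 13, variant CAGTTACA), 29 and 9, and only the highest has a site. CCT5 had a 3′ UTR peak scoring 101 with a 7mer-A1 and a coding peak scoring 15 without a site. It is the only TRiC gene with a listed 7mer match. CCT7 scored 41, 13 and 8, CCT6A 55, CCT8 12 and 5, and CCT6B 13, all without a site. The CCT6B peak, at its promoter, lies on the strand opposite to the gene. The median of the 12 CCT peaks was 14 (exact 95% interval 9 to 55).

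The J-domain genes had a median score of 14 (interval 9 to 20) over 12 peaks in 9 genes, the same median as the CCT peaks, and a range from 5 to 47. DNAJC10, a disulfide reductase of the endoplasmic reticulum, had the highest 2, a coding peak scoring 47 without a site and the 31-scoring peak with a 7mer-A1. DNAJC16 scored 20 without a site and 5 with a variant (C7T) in the same exon. DNAJA3, DNAJB4, DNAJB14 and DNAJC3 had peaks in the 3′ UTR, scoring 14, 14, 9, and 13 and 7. None of those 5 peaks has a listed site. DNAJC11 and DNAJC17 had intron peaks, both scoring 14, and DNAJC13 a coding peak scoring 15, again without a site.

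**Figure D1:**
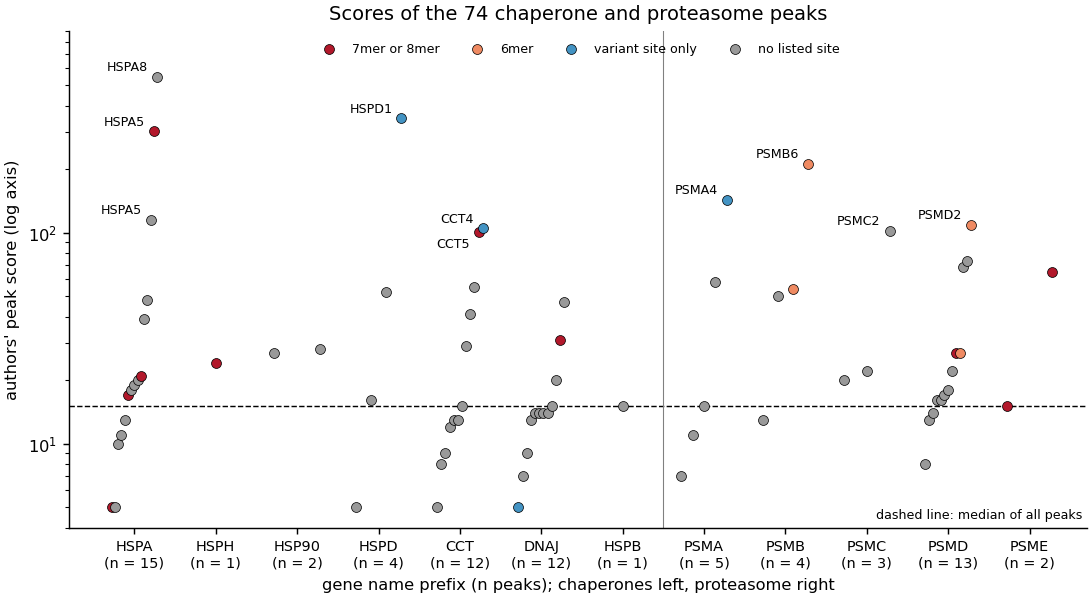
The authors' score of each of the 74 peaks (log axis) is plotted by gene name prefix, with peaks of a prefix ordered by score and coloured by their best listed miR-194 site; the dashed line is the median of all peaks, 15. The HSPA8 point at 548 is grey, without a listed site, and the blue points at 348, 143 and 105 (HSPD1, PSMA4 and CCT4) hold only a variant.

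In the 20S core, sites were listed for 1 of 3 PSMA genes and 2 of 3 PSMB genes with peaks, and none was a 7mer match. PSMB6, the catalytic subunit with caspase-like activity, had 1 peak scoring 212, rank 110, in exon 4 of 6 (chr17:4700951-4701109, plus strand), with a 6mer 7.5 nt downstream of the peak's centre. PSMA4, a subunit of the outer ring, had 1 peak scoring 143 with a variant 0.5 nt upstream of the centre. PSMB7, the subunit with trypsin-like activity, scored 54 in exon 5, with the 6mer printed above and a variant that differs by C1A and T2G, and 13 in exon 4 with no site. PSMA2 scored 58 and 7 in exon 5 and 15 at its promoter, and PSMB1 50 in exon 3 of 6, all without a listed site. PSMA1 had only a promoter peak, scoring 11. That peak and the PSMA2 promoter peak lie on the strand opposite to their gene.

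In the 19S cap, PSMC2, an ATPase of the base, had a peak scoring 102 at its transcript end without a site, and PSMC5, another ATPase, only a promoter peak scoring 20. The PSMC5 peak lies on the strand opposite to the gene. PSMD2, a large scaffold subunit of the base that docks ubiquitin receptors, had a peak scoring 109 with a 6mer and, upstream in the last exon of its listed transcript, a peak scoring 27 with a 7mer-m8. PSMD2 is the only 19S gene with a 7mer match. PSMD3, a lid subunit, had 4 coding peaks scoring 27 (6mer), 18, 13 and 8. The ubiquitin receptor PSMD4 scored 73 and 16, the lid subunits PSMD7, PSMD8 and PSMD6 scored 69, 22 and 14, and PSMD10, an assembly chaperone, scored 17 in its 3′ UTR and 16 in an intron, all without a site. PSMC3IP, the recombination protein, scored 22 without a site.

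PSME4 (PA200), an activator that caps the core without ubiquitin, was the only PSME gene with peaks. Its peaks scored 65 in exon 25 of 47 and 15 in exon 10, and both hold a 7mer-A1, 14 and 37 nt downstream of the peak's centre. It is the only member whose 2 matched peaks both lie in coding exons. The second of these sites reads as follows.
PSME4, exon 10, 7mer-A1, peak score 15: tactgatcaagaTGTTACAgactttgtaca

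**Figure D2:**
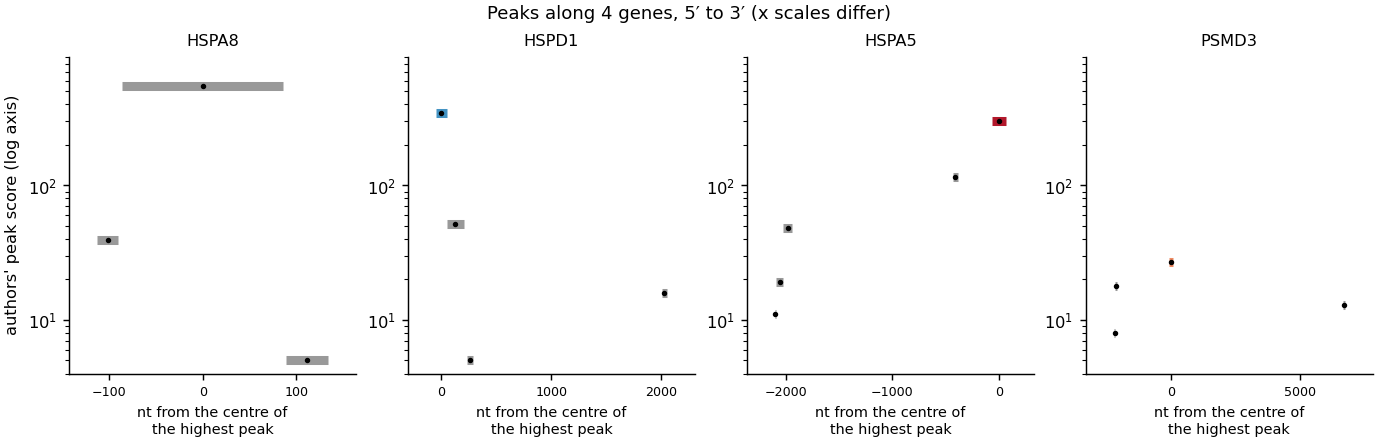
Scores (log axis) are drawn against the distance in nt from the centre of the gene's highest peak, 5′ to 3′, with bars as wide as the peaks and a dot at each centre, red for an 8mer, orange for a 6mer, blue for a variant and grey for no listed site. HSPA8 holds its 548-scoring peak and its lower ones within about one exon and its edge, whereas HSPA5 and PSMD3 have peaks spread over several exons.

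By score, the members had a median of 18 (interquartile range 13 to 47.75, exact 95% interval of the median 15 to 24), and the whole list a median of 15 (12 to 23, interval 14 to 15). Chaperone peaks had a median of 16 (interval 14 to 24) and proteasome peaks of 22 (15 to 58), and these intervals overlap. Scores above the list's median were held by 43 of the 74 peaks, against 44.6% of all peaks. Scores of 100 or more were held by 10 peaks (13.5%, 6.68 to 23.5%), against 4.19% of all peaks. These 10 belong to HSPA8, HSPD1, HSPA5 (with 2 peaks), PSMB6, PSMA4, PSMD2, CCT4, PSMC2 and CCT5. Counting only the highest peak of each gene, the median was 20 (interval 14 to 41) for the 26 chaperone genes and 54 (22 to 73) for the 17 proteasome genes. These intervals overlap, and the median for all genes was 17, inside the chaperone interval only. The intervals of shares and medians are exact and cover counting error only, and peaks of the same gene are not independent.

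By class of gene part, coding exons held 46 of the 74 peaks (62.2%, Clopper-Pearson interval 50.1 to 73.2%), against 33.0% of all peaks. The share was 57.4% (42.2 to 71.7%) for chaperone and 70.4% (49.8 to 86.2%) for proteasome peaks, with overlapping intervals. In the 3′ UTR class there were 7 peaks (9.46%, 3.89 to 18.5%), against 23.0% of all peaks, and 6 of them were chaperone peaks. Introns held 7 peaks as well (9.46%, 3.89 to 18.5%), against 20.4% of all peaks, and 6 of them were chaperone peaks. Transcript ends held 6, against 5.37% of all peaks, and promoters or transcription starts 5 (6.76%, 2.23 to 15.1%), against 5.47%. Non-coding transcripts held 2 and the 5′ UTR 1. Within coding exons the median score was 27 (interval 15 to 48) for chaperone and also 27 (14 to 65) for proteasome peaks. Over all 2567 coding exon peaks of the list it was 17, a value inside both intervals.

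**Figure D3:**
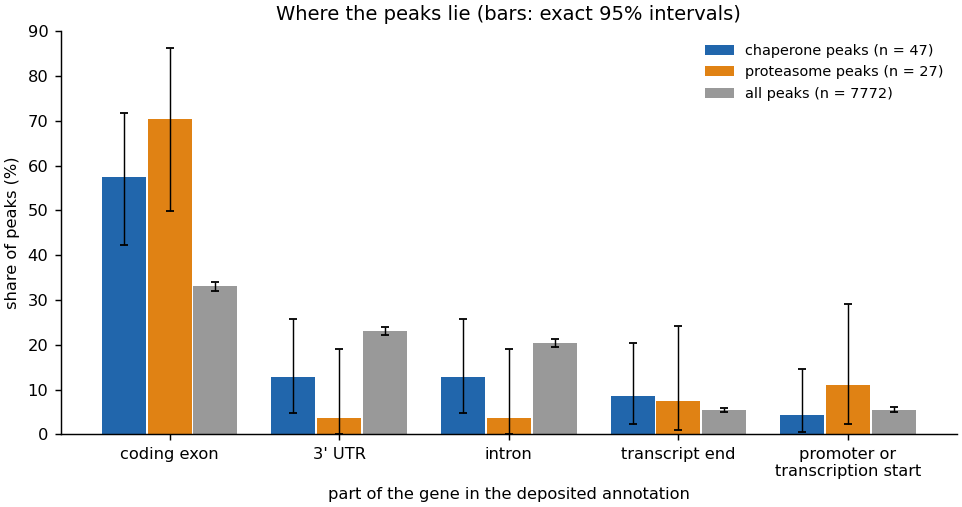
Shares of peaks (%) in each part of the gene are shown as bars for the 47 chaperone, 27 proteasome and all 7772 peaks, with exact 95% intervals. Coding exons hold 57.4% and 70.4% of the members' peaks, above the 33.0% bar of all peaks, and the 3′ UTR bars of both families are below 23.0%.

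For each definition of a listed site, the interval of the members' share included the share in the whole list. A 7mer match lay in 10 of 74 peaks (13.5%, 6.68 to 23.5%), against 13.4% of all peaks. The share was 7 of 47 (14.9%, 6.20 to 28.3%) for chaperone and 3 of 27 (11.1%, 2.35 to 29.2%) for proteasome peaks. With 6mers counted too it was 14 peaks (18.9%, 10.7 to 29.7%), against 16.8%, and with variants 18 peaks (24.3%, 15.1 to 35.7%), against 19.4%. Peaks with a variant alone numbered 4 (HSPD1, PSMA4, CCT4 and DNAJC16), against 2.62% of all peaks. Over genes, 8 of 43 had a 7mer match (18.6%, 8.39 to 33.4%), against 23.6% of all genes. Genes with a single peak made up 23 of the 43, against 55.8% of all genes.

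Within coding exons the 2 families stood in the opposite order. A 7mer match was listed in 1 of 27 chaperone coding peaks (3.70%, 0.0937 to 19%), the HSPA5 8mer, and in 3 of 19 proteasome coding peaks (15.8%, 3.38 to 39.6%), those of PSMD2 and PSME4. The intervals overlap. Together this is 4 of 46 (8.70%, 2.42 to 20.8%), against 15.0% of all coding exon peaks, and any site was listed in 11 of 46, against 26.0%. In the 3′ UTR class 1 of 7 peaks had a 7mer match, against 19.8%, and at transcript ends 3 of 6, against 20.4%. The listed pattern is 10 bases long in the 3′ UTR peak of CCT5 and 9 bases in the other member peaks, so shares in different parts of the gene are not directly comparable.

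**Figure D4:**
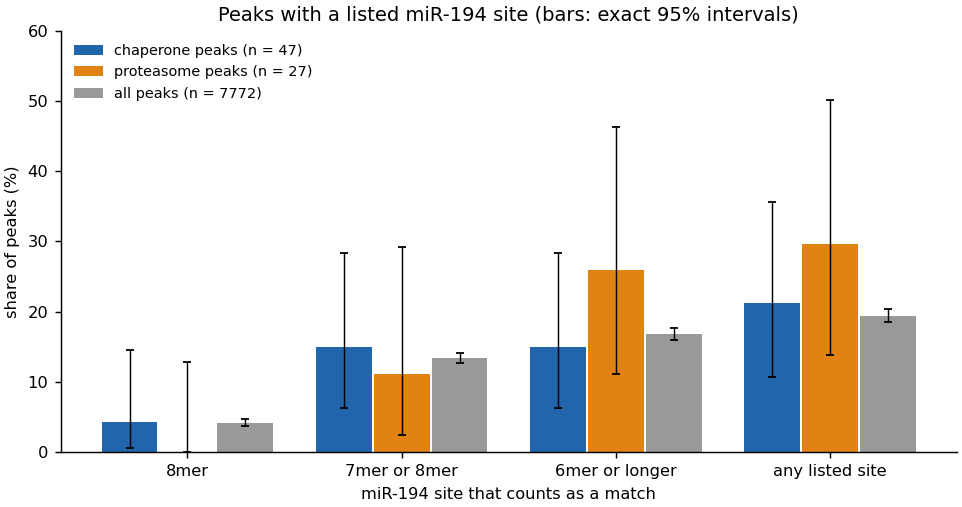
Shares of peaks (%) with a listed miR-194 site are shown as bars for 4 definitions of a match, for chaperone, proteasome and all peaks, with exact 95% intervals. For 7mer or 8mer sites the bars stand at 14.9%, 11.1% and 13.4%, and the intervals of both families include the value of all peaks in each definition.

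The class of the listed site and the score gave no simple order. The 10 peaks with a 7mer match had a median score of 25.5 and the 64 without one a median of 16.5, a ratio of 1.55 (interval 0.682 to 7.21, which includes 1). That interval comes from dividing the ends of both medians' intervals, so it is not exact. The 4 peaks with a 6mer at best had a median of 81.5, the 4 with a variant alone 124, and the 56 with no listed site 15.5. In the whole list the medians were 31, 32, 27 and 14. The 18 member peaks with any listed site had a median of 42.5 (interval 21 to 109), against 31 in the whole list. Their ratio to the 56 peaks without a site was 2.74 (1.05 to 7.79), an interval formed in the same way that lies above 1. The 7mer ratio was 0.707 among the peaks that score above the list's median. The 12 listed 7mer sites of members had their centre a median of 14 nt from the peak's centre (interval 4.5 to 26).

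Coding exon peaks without a listed site were followed across the exon junction, into the neighbouring exon of the spliced transcript. This search was chosen after the scores were seen. HSPA8 exon 3 is 206 nt long, its 2 exon peaks span 200 nt of it, and it holds no TGTTAC. In the spliced transcript a 7mer-m8 lies in exon 4, with 1 nt between the exon's edge and the match. PSMB1 exon 3 is 82 nt long and its peak 79 nt, and a 7mer-A1 ends 4 nt before the start of exon 3, in exon 2. The first 11 bases of the HSPA8 stretch belong to exon 3 and the following 19 to exon 4. The first 23 bases of the PSMB1 stretch belong to exon 2 and the last 7 to exon 3.
HSPA8, exons 3 and 4, 7mer-m8, peak score 548: accttgggaagaCTGTTACcaatgctgtgg
PSMB1, exons 2 and 3, 7mer-A1, peak score 50: gatagccccaaaTGTTACAaattaacagac

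The HSPA8 match differs between the HSP70 genes. At the aligned place HSPA5 reads aggttac (C1A, T2G) and HSPA1B reads cggtgac (T2G, T5G), counted from 1 at the 5′ end of ctgttac. Neither of them holds the 6mer there.

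The shares are over coding exon peaks without a listed site whose exon could be matched. A 7mer wholly or partly in the neighbouring exon, within 30 nt of the exon's edge, was found for 3 of 35 member peaks (8.57%, 1.8 to 23.1%). The share was 4.42% of all 1834 such peaks. These 3 are the PSMB1 peak and both exon peaks of HSPA8, which share the same match. The search began at the exon's edge and also took matches that cross the junction. The distance from the peak to that edge was not limited. The 39-scoring HSPA8 peak does not adjoin the match, because the 173-nt peak scoring 548 lies between them. For all peaks the share was 2.13% (1.41 to 3.09%) at scores from 5 to 19, 6.74% (4.56 to 9.54%) from 20 to 49, and 18.0% (12 to 25.4%) at 50 or more. Member peaks gave 0 of 17, 1 of 10 and 2 of 8 in the same bins, and the 1 of 10 is the 39-scoring HSPA8 peak. Peaks that already have a listed 7mer match had such a neighbour in 4 of 359 cases (1.11%, 0.304 to 2.83%). Whether the mimic changed binding at these junctions could not be examined in a list that merges both groups.

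**Figure D5:**
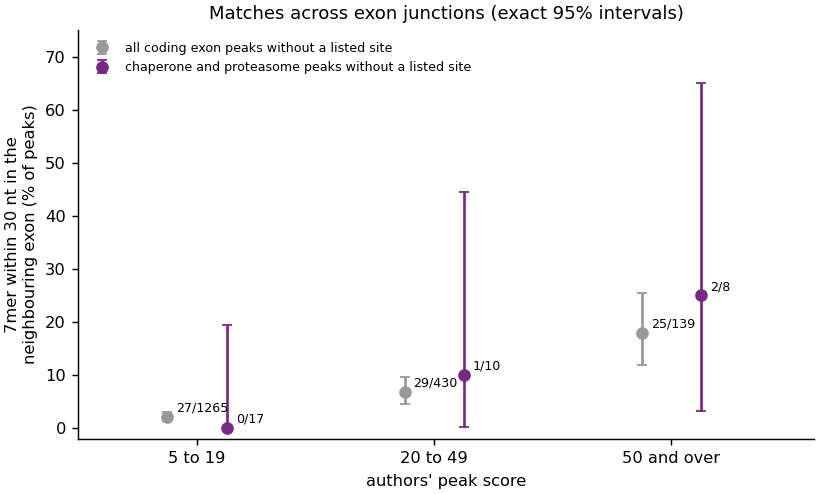
Coding exon peaks without a listed site are plotted by score bin, for all peaks (grey) and members (purple). The points give the share (%) with a 7mer wholly or partly in the adjoining exon, within 30 nt of the exon's edge, wherever the peak lies. Exact 95% intervals are drawn, with counts beside the points. The grey points rise from 2.13% to 18.0%; the member points rest on 35 peaks and have intervals that include the grey values.

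The transcripts, 1 per gene, were read along their whole listed length for the same letters on the sense strand. Each was the first by identifier among those paired with the accession of the gene's highest peak. It need not be the longest, and whether it is complete was not checked (that of PSMC2 has 656 nt). Of the 43 member transcripts 13 (30.2%) hold a 7mer match anywhere, against 37.9% of 3550 matched genes, and the member transcripts are shorter, with a median length of 2299 nt against 3373.5 nt. A listed 7mer match was present for 7 of those 13 genes, against 51.5% of the 1346 genes with one. The 6 others are HSPA8 and PSMB1, whose matches are the junction ones printed above, and DNAJB4, DNAJC13, DNAJC16 and CCT6B. For chaperones 10 of 26 transcripts hold a match and for the proteasome 3 of 17 (PSMB1, PSMD2 and PSME4), with a median proteasome transcript of 1416 nt. The PSME4 transcript holds 4 matches, of which 2 are under a peak.

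The strand and the neighbours of each peak were read as well. On the strand opposite to their gene lay 4 of the 74 peaks, against 4.73% of all peaks, and all 4 are promoter peaks (CCT6B, PSMA1, PSMA2 and PSMC5). The members have 5 promoter or transcription start peaks. In the whole list, 157 of 402 such peaks with a known gene strand (39.1%) lie opposite to their gene. Peaks within 10 nt of a neighbour made up 24 of 47 chaperone peaks (51.1%) and 4 of 27 proteasome peaks (14.8%), against 36.0% of all peaks. Pseudogene copies are a limit for the highest peaks. They were counted in RefSeq by names made of the member's symbol, P and a number. This gave 22 for HSPD1 and 20 for HSPA8, and 18 of the 43 members have at least 1. Copies named otherwise were not counted. No peak of the list is named for such a copy, and how the reads of copies were placed was not tested.

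The family lists give the members' coverage. A peak was listed for 7 of 15 HSP70 and HSP110 genes, 2 of 3 HSP90 genes, 1 of 2 mitochondrial chaperonin genes, 6 of 8 TRiC genes counted by CCT names, 3 of 8 PSMA, 3 of 11 PSMB, 2 of 6 PSMC ATPase, 7 of 14 PSMD and 1 of 4 PSME genes. These counts include CCT6B, PSMA1 and PSMC5, whose only peak lies on the strand opposite to the gene. The share of all human genes that have a peak was not computed, so none of these counts can be called high or low. Levels of these transcripts in 22RV1 cells were not measured in the list, so a gene without a peak cannot be told apart from a gene with little RNA.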

How the data were processed

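Per the submitters' processing notes, the authors used TopHat2 2.0.9, cutadapt 1.8.1, SAMtools, FastQC and MACS2 with build hg19; order and settings are not given in the sources used here. The deposited table holds the authors' score for every peak, in whole numbers between 5 and 1270; what it measures and which libraries were merged is not given there. Peak positions, gene names, gene parts and listed sites are the authors'. Depth per library is unknown.

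From these, listed sites on the peak's own strand were classed by their bases. Shares have Clopper-Pearson 95% intervals and medians binomial intervals. The interval of a ratio divides the ends of the medians' intervals, lower by upper and upper by lower, and its coverage was not tested. No test was run, because there are no values per library. Distances were recomputed from peak and site positions. Sites were placed by their bases in GENCODE 29 transcripts paired through RefSeq accessions, and 2461 of 2567 coding exon peaks matched with the same number of exons. No coordinate was converted between builds. The intervals of shares and medians were tested on simulated data, and the site classes and the naming rule on fixed examples.

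The members, gene lists and comparisons were chosen with earlier results of these data known. Genes named are the markers, each prefix's highest peak, every gene with a 7mer match, with at least 3 peaks or among the 10 highest peaks; others were named after their values were seen. Python 3.11.15, pandas 2.3.3, numpy 2.4.6, scipy 1.17.1 and matplotlib 3.10.9 were used.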

Additional observations from a re-analysis of the deposited data

How the results depend on the processing

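Across 10 results and 71 alternatives, 59 values stayed within the interval of the main value and 12 did not. The alternatives reuse the same member peaks, so these counts are not independent support. A narrower definition of a site cannot raise a share, and a wider one cannot lower it. No paired analysis was possible because the table has no column per library, and leaving out a replicate could not be done for the same reason. With 8mers alone the share of peaks with a match was 2.70% for all members, 4.26% for chaperone and 0% for proteasome peaks, against 4.16% of all peaks. Only 2 member peaks hold an 8mer, and 4.65% of member genes have one. With any listed site the share was 24.3%, and 29.6% for proteasome peaks, against 19.4% of all peaks. It was 34.9% of member genes, against 32.7% of all genes. Only coding exon peaks gave 3.70% of chaperone peaks with a 7mer match and a median score of 27 for all members and 27 for chaperones. Only peaks scoring above the list's median gave median scores of 39 and 35, as that choice must, and a ratio of 0.707 between peaks with and without a 7mer match, which is within the interval of the main ratio but below 1; the ratio exceeded 1 in 8 of 9 alternatives. The cause was not tested. Leaving out peaks opposite to their gene, or counting runs of neighbours once, was added after the data were seen. Small numbers of peaks and unknown depth limit every share.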

Other observations

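Gene lists of genes outside the naming rule were counted beside the members. Here too the share of all human genes with a peak was not computed, so the counts cannot be called high or low. Calnexin (CANX), a lectin chaperone of the endoplasmic reticulum, had 9 peaks, all in its 3′ UTR, scoring from 6 to 529, and the highest 2, 529 and 193, hold a 6mer. It was 1 of 4 genes with a peak among 15 of ER folding, and UGGT1, which recognises misfolded glycoproteins, was the only one with a 7mer match, in a peak scoring 16. Of 26 co-chaperones and heat shock regulators 10 had peaks, the highest scoring 29 in BAG4, the only gene of that list with a 7mer match. Of 20 proteasome assembly and partner genes 6 had peaks. USP14, a deubiquitinase bound to the proteasome, had a coding peak scoring 120 with a 7mer-A1, and VCP, the ATPase that extracts ubiquitin-tagged proteins, had a coding peak scoring 45 with a variant.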
